A study of Mus musculus with 36 samples.

Results

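Brain maturation between postnatal days 3 and 21 (P3 and P21) was measured across all genes in the libraries labelled as Myt1l heterozygotes. These are 13 of the 36 samples of the study, 8 whole brains at P3 and 5 at P21, and their members were taken by the age and genotype labels. Every mouse was a male of the C57BL/6J strain, the label gives the genotype as a heterozygous Myt1l mutation without naming the allele, and no treatment is listed. The comparison groups used beside them are 8 wild-type brains at P3 and 5 at P21, also male C57BL/6J, and 5 heterozygote-labelled brains at P56 are given once for Myt1l. A whole brain mixes all regions and cell types, and a mouse was measured at 1 age only. Litters and cages are not recorded in the labels, so the p-values measure the spread between these samples.

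In the mouse, the first weeks after birth turn an immature brain into a largely adult one. Progenitor cells stop dividing in most regions, while the cerebellar granule cell precursors go on dividing well after birth. Young neurons finish migrating, extend axons and dendrites and form synapses, and receptor and channel subunits of early life give way to adult ones. Oligodendrocytes begin to wrap axons in myelin, and astrocytes and microglia take on their adult forms. Myt1l encodes a zinc-finger transcription factor of the MYT1 family that is made in neurons and is known for repressing genes of other cell fates, and loss of 1 copy causes a neurodevelopmental disorder in people.

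Values are the authors' normalized counts, which are not divided by gene length, so levels are compared between libraries for the same gene and never between genes. Means are given ± SD with n = 8 at P3 and n = 5 at P21, and log2 changes are P21 minus P3 of log2(value + 1). That scale understates the change of genes near 0. A gene is said to have risen or fallen when its limma p-value, adjusted over all tested genes by the Benjamini-Hochberg method, was under 0.05. It is said to have passed 2-fold when the limma test against a log2 change of 1 was also under 0.05 after adjustment. Unless wild-type is named, "P3" and "P21" below mean the heterozygote-labelled libraries.

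The 13 libraries separated by age before anything else. Principal component 1 held 77.9% of the variance and split the ages, and component 2 held 4.2%. The lowest correlation across genes was 0.985 between 2 P3 libraries and 0.979 between 2 P21 libraries, whereas the highest between a P3 and a P21 library was 0.93. P3 replicate 1 stood apart from its group. It lay at -44.65 on component 1, while the other 7 P3 libraries lay between -63.46 and -58.9, which placed it 10.6% of the way to the P21 mean. Of the 38 gene lists used, its mean log2 value was the P3 value nearest to P21 in 26. P21 replicate 3 was the P21 library nearest to P3 in 16 lists and had the highest score on component 2. Without P3 replicate 1 the median change moved by over 0.1 in 1 of the 38 lists, the blood cells, from 1.97 to 2.18. Without P21 replicate 3 it also moved by over 0.1 in 1 list, the genes of other tissues. The same list moved further without P21 replicate 5, from 1.43 to 0.97. The P21 sample descriptions begin with the number 24 or 11, called the prefix below. With the P21 libraries of prefix 24 only, the median moved by over 0.1 in 4 lists, and with those of prefix 11 only in 9.

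**Figure D1:**
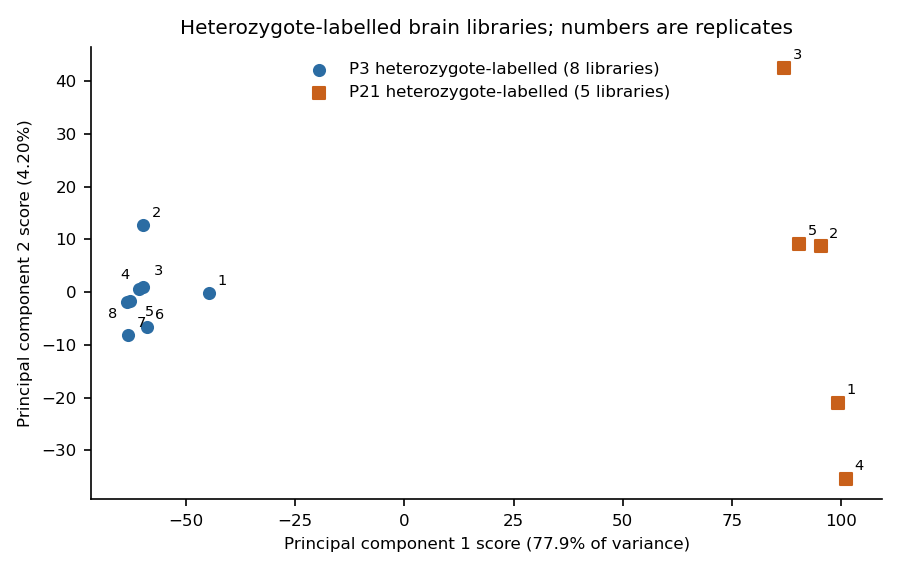
Principal component scores of the 13 heterozygote-labelled libraries, with component 1 (77.9% of the variance) on the horizontal axis and component 2 (4.2%) on the vertical axis. Circles are the 8 P3 libraries, squares the 5 P21 libraries, and numbers are replicates; P3 replicate 1 lies nearest to P21 among the P3 libraries.

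The labelled tissue was checked against genes of neighbouring tissues that a dissection can include. Growth hormone (Gh), a product of the anterior pituitary, was listed at 0 in every P3 library and at 0, 0.886, 218, 16.2 and 7674 in P21 replicates 1 to 5. Pomc, the hormone precursor of pituitary and hypothalamus, was 1670 in P21 replicate 5 against 47 to 78.1 in the other 4, and prolactin (Prl) was also highest there, at 588. The log2 change of Pomc was 2.28 with and 1.36 without that library. Omp, a marker of olfactory sensory neurons, rose from 16.9 ± 5.33 to 156 ± 28.9. Red cell genes rose in 5 of 6 cases, with a median log2 change of 1.97, and Slc4a1, the red cell anion exchanger, did not pass the test (0.61). In a fit of both genotypes, which kept 7 of these genes, the medians were 1.93 and 3.08 in wild-type. In that fit 0 of the 7 differed between genotypes at an unadjusted limma p under 0.05. Their mean log2 value varied widely between libraries, from 7.49 to 9.94 at P3. These genes moved with age or with 1 library, and their part in the other results was not tested. In a whole brain, fewer cells of a type and less RNA per cell cannot be told apart, which holds for every gene group below.

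Myt1l itself was the first gene examined, since it is the gene named in the genotype label. Its normalized counts at P3 ran from 14184 to 16585 with a median of 16143, and the P21 libraries held 7359, 8135, 7434, 7341 and 8439. All P21 values lay below all P3 values. The mean fell from 15659 ± 934 to 7742 ± 511 (log2 change -1.02, SE 0.052, limma adjusted p 1.9e-12; 95% interval -1.13 to -0.91), and an exact two-sided permutation test gave p = 0.00155, the smallest that 8 against 5 libraries can give. In wild-type brains the gene went from 11235 ± 538 to 7210 ± 620.2. The P3 libraries labelled heterozygote were therefore higher than every wild-type P3 library, whose highest value was 12051, and at P21 the genotypes overlapped. The gene named in the label was thus not lower in the labelled libraries at either age. The labels name no allele, so it is unknown whether the transcript of a mutated copy is counted here. These counts therefore cannot decide the genotype, and the groups are called heterozygote-labelled throughout. At P56 the heterozygote-labelled libraries held 6536 ± 566 (SD, n = 5). Myt1l lies on chromosome 12 of build GRCm38, at 29528384 to 29923213 on the plus strand.

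Most of the transcriptome differed between the ages. Of 17877 genes tested, 6767 (37.9%) rose and 7052 (39.4%) fell at P21, together 77.3%. These shares are the background for every count below of list members that rose or fell. Past 2-fold, 1592 genes (8.91%) rose and 1337 (7.48%) fell, together 16.4%. The 13 libraries did not overlap between ages for 9925 genes (55.5%). The median change was -0.022, the middle 50% of genes lay between -0.57 and 0.53, and the middle 90% between -1.73 and 1.87. Scaling each library to a common total, in place of the authors' normalization, moved the median by -0.15. The share of past 2-fold genes that were higher then went from 54.4% to 43.6%, and the share of all called genes from 49.0% to 39.6%. The calls were also counted for the extremes, where 106 genes were called and over 16-fold higher and 40 over 16-fold lower by the fitted change. In 27 genes every P21 library held at least 20 and every P3 library under 5, and in 11 genes the reverse held.

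**Figure D2:**
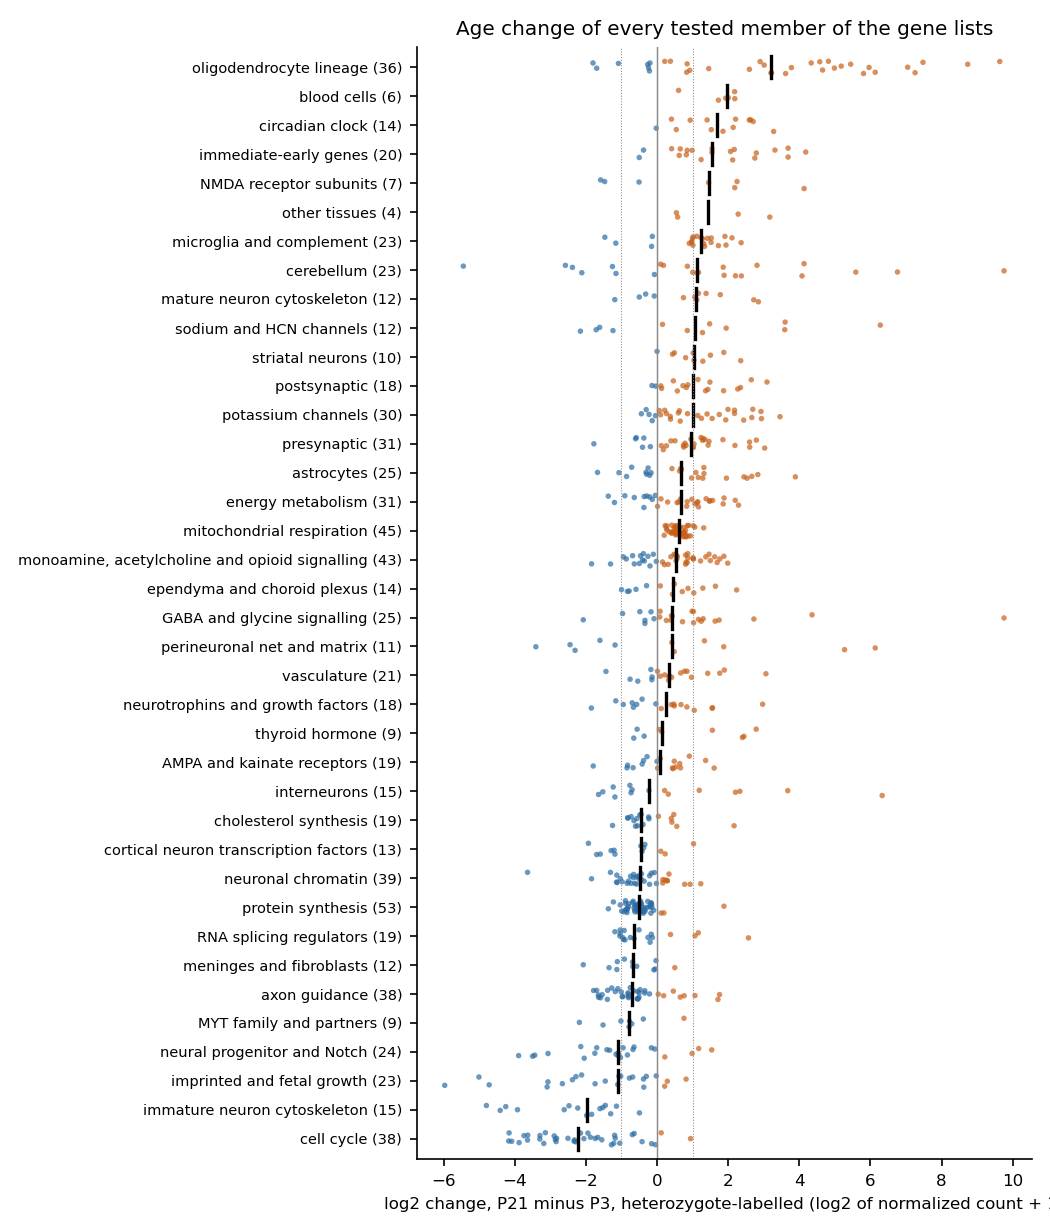
Log2 change from P3 to P21 (horizontal axis) of each tested member of the gene lists, 1 row per list, with 1 point per gene and the list's median marked. The medians of the cell cycle and immature cytoskeleton lists lie left of 0. Those of the oligodendrocyte lineage (which holds the myelin genes), potassium channel and mitochondrial respiration lists lie right of it.

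The genes of cell division fell as a block. All 15 mitosis genes of the list fell and all 15 passed 2-fold, with a median log2 change of -3.3, beside 39.4% and 7.48% of all genes tested. All 12 DNA replication genes fell, 10 of them past 2-fold, with a median of -2.0. For Mki67, the Ki-67 antigen that marks dividing cells, the P3 libraries ran from 2145 over a median of 2401 to 2651, and the P21 libraries held 99.1, 102, 139, 159.8 and 180.2. The lowest P3 value was several times the highest P21 value, and the change was 18-fold (log2 change -4.17, SE 0.12, limma adjusted p 5.26e-15). Cdk1, the kinase that drives entry into mitosis, went from 358 to 621 (median 499.6) at P3 to 37.5, 38.3, 30, 56.2 and 33 at P21. Top2a, the topoisomerase that untangles replicated chromosomes, went from 1603 to 2066 (median 1833) to 132, 129.8, 133, 163 and 169.7. No library of either age overlapped with the other age for any of the 15 genes, beside 55.5% of all genes that did not overlap. The remaining fall sizes ranged from Bub1b, a checkpoint kinase, at -2.29 to Cenpf, a kinetochore protein, at -4.16, and the cyclins Ccnb1 and Ccnb2 fell by 4.09 and 2.86 on the log2 scale. Among the replication genes, the nucleotide-making enzymes Rrm2 (-3.29) and Tyms (-2.5) fell most and Pcna, the sliding clamp of DNA polymerase that also serves in repair, fell least (-0.7).

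The G1 regulators were mixed. Of 11 genes, 7 fell, 4 of them past 2-fold, and 1 rose. Cdk2 (-1.87), Cdk6 (-1.67) and Cdk4 (-1.19), kinases of the G1 phase, fell, as did the inhibitor Cdkn1c (-1.74), an imprinted gene. Ccnd2, the cyclin of dividing neural precursors, went from 4635 ± 176 to 2246 ± 208 (-1.05), while Ccne1, a cyclin of S-phase entry, rose from 248 ± 16.3 to 481 ± 63.8 (0.94). The other 3 did not pass the test.

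Genes of mitosis are known to share promoter elements, a CCAAT box bound by the factor NF-Y and the cell cycle genes homology region (CHR). RefSeq promoters of build GRCm38.p6, 250 bases before to 50 after each start, were matched for 12 of the 15 mitosis genes. The stretches below hold these elements in 5 genes whose fall is described above, and are shown so that the shared letters can be seen. Each is printed 5′ to 3′ on the gene's own strand, and capitals mark CCAAT or its reverse complement ATTGG and TTTGAA or its reverse complement TTCAAA.
Ccnb2: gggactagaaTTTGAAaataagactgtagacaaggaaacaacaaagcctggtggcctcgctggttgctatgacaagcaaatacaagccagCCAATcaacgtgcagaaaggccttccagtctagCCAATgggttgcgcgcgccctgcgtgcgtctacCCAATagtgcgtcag
Cdk1: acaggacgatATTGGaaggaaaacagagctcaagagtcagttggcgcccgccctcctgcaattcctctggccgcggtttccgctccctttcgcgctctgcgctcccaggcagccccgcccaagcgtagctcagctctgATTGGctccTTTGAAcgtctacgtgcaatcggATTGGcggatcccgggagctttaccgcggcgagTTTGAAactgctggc
Top2a: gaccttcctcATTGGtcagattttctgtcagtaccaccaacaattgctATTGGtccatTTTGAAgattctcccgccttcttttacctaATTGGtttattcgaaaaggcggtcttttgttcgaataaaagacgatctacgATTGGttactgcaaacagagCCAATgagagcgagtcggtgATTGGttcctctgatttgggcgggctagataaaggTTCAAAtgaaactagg
Mki67: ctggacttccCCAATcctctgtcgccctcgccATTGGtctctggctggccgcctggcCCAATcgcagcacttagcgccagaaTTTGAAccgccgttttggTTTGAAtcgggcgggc
Kif11: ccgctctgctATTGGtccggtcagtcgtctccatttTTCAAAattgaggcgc
The stretch of Ccnb2 lies at chr9:70421561-70421731 on the minus strand, that of Cdk1 at chr10:69352913-69353130 (minus), of Top2a at chr11:99024197-99024426 (minus), of Mki67 at chr7:135716462-135716577 (minus), and of Kif11, a spindle motor, at chr19:37376327-37376378 (plus). All 5 end before the RefSeq start of the transcript.

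The letters were counted on both strands in every promoter, and 1 base could serve in more than 1 motif. CCAAT was in 11 of 12 mitosis promoters (91.7%) and TTTGAA in 8 (66.7%), against 37.9% and 18.1% of all 27025 promoters in the table. Both were present together in 8 (66.7%), against 7.12% of all promoters. For DNA replication, 10 of 12 promoters were matched, of which 9 (90%) held CCAAT and 3 (30%) held the E2F letters TTCCCGC, beside 4.66% of all promoters for the latter. CCAAT was also in 10 of 13 matched promoters (76.9%) of radial glia and progenitor markers, most of which fell, and in 1 of 17 (5.88%) of complex I of the respiratory chain, whose genes rose. AAGTTT, the core that MYT1 family fingers are known to bind, was in 2 of 12 mitosis promoters (16.7%), in 4 of 10 DNA replication promoters (40%) and in 14.4% of all promoters. A match describes letters in this window only.

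Progenitor genes fell with a few exceptions. Of 13 tested radial glia and progenitor markers, 10 fell and 2 rose (median -1.41), and of 11 Notch pathway genes 8 fell and 1 rose (2 without P3 replicate 1; median -1.09). For Tnc, an extracellular matrix protein of radial glia, P3 values ran from 5163 over 6029 to 7120 and P21 values were 394, 345, 395, 479 and 423. Sox11, a transcription factor of newborn neurons, had 5055, 8258 and 8998 as its lowest, median and highest P3 values, and 692, 660.3, 747, 647 and 697 at P21. Neither gene overlapped between ages, and the changes were log2 change -3.89, SE 0.081, limma adjusted p 1.49e-17 for Tnc and log2 change -3.5, SE 0.11, limma adjusted p 7.85e-14 for Sox11. Fabp7, the fatty acid-binding protein of radial glia, fell from 17749 ± 1314 to 1772 ± 814 (-3.44), and its relative SD at P21 was the larger of the 2 ages. Nestin (Nes, -2.15), vimentin (Vim, -1.41) and the newborn neuron factor Sox4 (-3.06) passed 2-fold downward. The factors Sox2 and Pax6, which adult glia and neurons also make, fell by 0.95 and 0.65. Hopx, which is also made by mature astrocytes, rose from 582 ± 62.5 to 1705 ± 328, and Prom1, also found in photoreceptors and glia, from 398 ± 52.6 to 899 ± 134. Eomes, the factor of intermediate progenitors that unipolar brush cells of the cerebellum and mitral cells also express, did not pass the test (531 ± 65.8 against 475 ± 65.2), and without P21 replicate 3 it fell by 0.23.

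Within the Notch pathway, the ligand Dll3 fell most, and no ligand beside Dll3 and Dll1 passed 2-fold. Dll3 (-2.05) and Dll1 (-1.75), ligands of newborn neurons, and Hes5 (-1.33), the main Notch target in neural progenitors, passed 2-fold. The receptors Notch1, Notch2 and Notch3 fell by 1.15, 0.68 and 1.09. Hey1, a target gene also active in blood vessels, rose by 0.99, and the other 2 genes did not pass the test.

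Genes of fetal growth fell steeply. Of 8 fetal RNA-binding and chromatin genes 7 fell, all 7 past 2-fold (median -2.72). Igf2bp3, a fetal mRNA-binding protein, ran from 202 over 290.4 to 331 at P3 and was 2.83, 0, 6.63, 6.78 and 6.25 at P21. Its relative Igf2bp1 ran from 73.4 over 166 to 211 at P3 and was 2.27, 1.5, 27.6, 3.11 and 1.67 at P21, where replicate 3 was well above the others. The ages did not overlap for either gene, with changes of -5.97 and -5.01. Myc (-3.09) and Mycn (-2.38), growth-driving transcription factors, Hmga2 (-3.07), a chromatin protein of fetal stem cells, and Lin28b (-1.46), an RNA-binding protein of fetal cells, also fell. The eighth gene did not pass.

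Of 15 imprinted genes, 11 fell and 2 rose (median -0.78). H19, a long non-coding RNA of the Igf2 locus, ran from 1381 over 2446 to 2967 at P3 and was 96.7, 74.2, 93, 92.1 and 75.4 at P21 (log2 change -4.72, SE 0.15, limma adjusted p 4.33e-14). P3 replicate 1 was the lowest P3 library, and still far above all 5 P21 libraries. Nnat (-2.66), a membrane protein of developing neurons, and Magel2 (-2.28) fell past 2-fold, Igf2, which meninges and choroid plexus make, fell by 0.69, and the paternally expressed Snrpn rose by 0.82. The other 2 did not pass the test.

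Cytoskeleton genes of young neurons fell and most of those of mature neurons rose. All 15 genes of the immature list fell, 13 past 2-fold (median -1.98), and all 15 were non-overlapping between ages, beside 55.5% of all genes. Dpysl3 (CRMP4), a growth cone protein, was among the most certain changes. Its P3 values ran from 78912 over 86458 to 90507, and the P21 values were 3182, 2822, 2794, 3040 and 3585. Dcx, the microtubule protein of migrating neurons, ran from 29793 over 39162 to 41489 at P3 and was 1539, 1701, 2261, 1441 and 2085 at P21. The changes were log2 change -4.8, SE 0.056, limma adjusted p 3.25e-21 for Dpysl3 and log2 change -4.41, SE 0.1, limma adjusted p 1.18e-15 for Dcx, and the lowest P3 library exceeded the highest P21 library by a wide margin in both. Tubb2b (-4.25), Dpysl5 (-3.92), Crmp1 (-2.61), Tuba1a (-2.48) and Gap43 (-1.98), all of growing axons, fell, and Stmn4 fell least (-0.5).

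In the mature list 8 of 12 genes rose, 5 past 2-fold, and 3 fell (median 1.09). The heavy neurofilament Nefh rose from 1254 ± 167 to 8252 ± 1039 (2.72), Cntnap1, the Caspr protein of the paranode beside the node of Ranvier, from 1349 ± 197 to 9645 ± 517 (2.85), and Tubb4a, a tubulin abundant in oligodendrocytes, by 1.78. The medium and light neurofilaments Nefm and Nefl rose by 1.06 and 0.74. Map6, which stabilizes microtubules, fell by 1.19, Cntnap2 by 0.5 and alpha-internexin (Ina), the first neurofilament of development, by 0.32.

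Axon guidance genes mostly fell. Of 38 genes 30 fell, 10 past 2-fold, and 7 rose, 2 past 2-fold (1 without P21 replicate 2 or 3 or P3 replicate 4 or 5; median -0.71). Among receptors, the netrin receptor Dcc fell from 2801 ± 219 to 896 ± 86.9 (-1.65), the Slit receptor Robo1 from 5473 ± 472 to 1744 ± 166 (-1.65), and the semaphorin receptor Nrp2 from 5288 ± 526 to 1528 ± 85.5 (-1.79). Of the ligands, Sema3f (-1.54) and the ephrins Efna2 (-1.39) and Efnb2 (-1.17) passed 2-fold. Ephb2 was the Eph receptor with the largest fall (-1.7). The rises against this direction were Robo3 (1.76), Unc5b (1.71), Slit3 (1.07), Sema3e (0.76), Unc5a (0.65), Sema3d (0.46) and Sema5a (0.18), and the call of Sema5a was lost with a common library total (0.034). The remaining gene, an Eph receptor, did not pass. The midline repellent Draxin, outside this list, was among the 15 largest falls of the whole table, from 2050 to 3483 (median 3239) at P3 to 74.6, 54.7, 47.5, 64.3 and 53.7 at P21. P3 replicate 1 was its lowest P3 library.

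St8sia2, the enzyme that puts polysialic acid on the adhesion molecule NCAM of young neurons, fell from 7245 to 10115 (median 9586) at P3 to 233, 222, 205, 201 and 284 at P21 (log2 change -5.33, SE 0.085, limma adjusted p 1.08e-18). The P21 values spanned a narrow range far below P3. Of the other largest falls, Fgf15 (-5.23), a growth factor of the developing diencephalon and midbrain, Akr1c19 (-5.83), Mmrn1 (-4.92), Hsd11b2 (-4.77), the enzyme that inactivates corticosterone, and P2rx2 (-4.77), an ATP-gated channel, had P21 means of 1.5, 2.11, 3.29, 2.9 and 8.83. Fitted folds at such low values depend on the added 1. The pseudogenes Eif4a-ps4 and Ptges3-ps also ranked here, but they resemble their parent genes closely, reads can be split between copies, and Eif4a-ps4 held 254 in P21 replicate 3 against 0 in the other 4. Fam205a2, one of several near copies, ranged from 75.2 to 255 at P3 and was listed at 0 in all 5 P21 libraries, and it is equally uncertain.

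**Figure D3:**
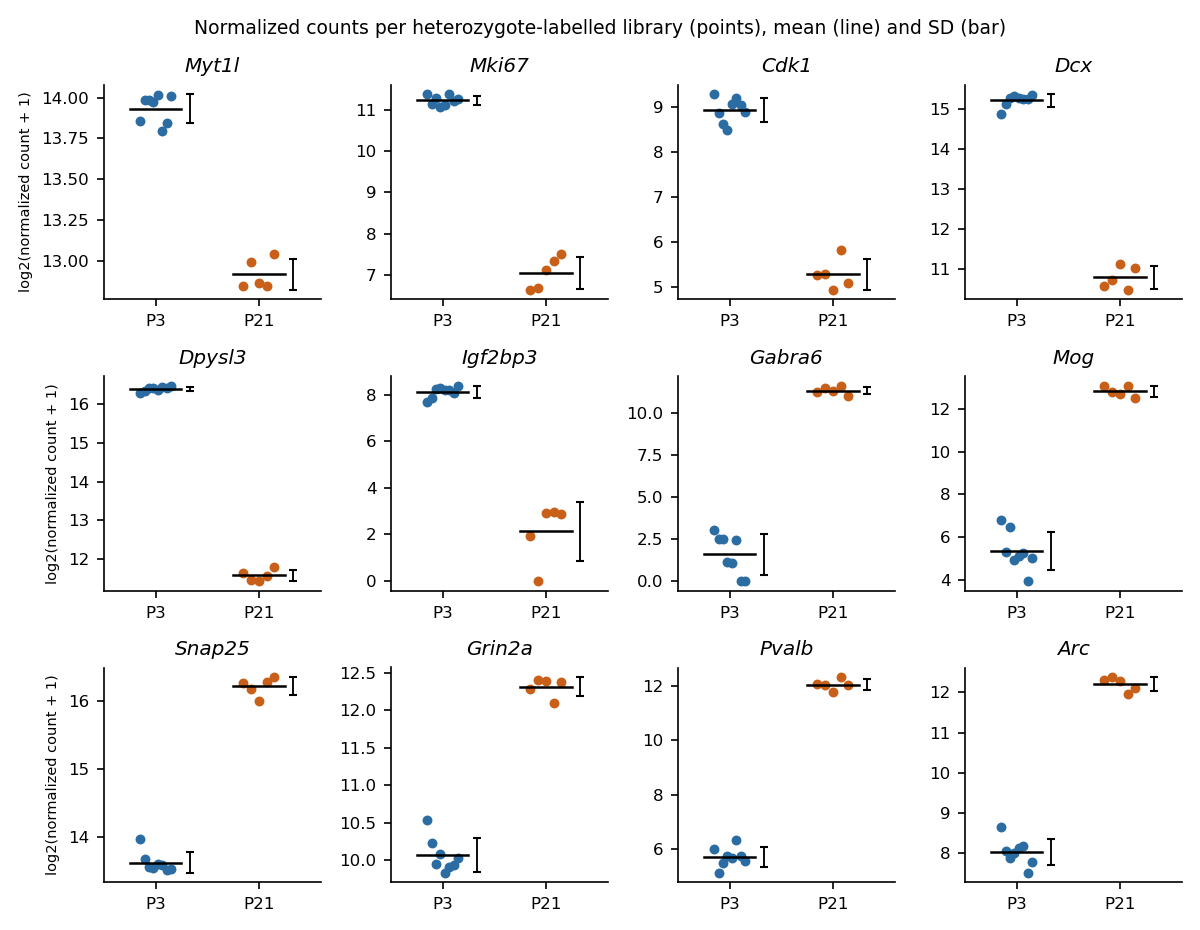
Log2 of the normalized count + 1 of 12 genes in each heterozygote-labelled library (vertical axes, 1 panel per gene). Points are the 8 P3 and 5 P21 libraries, and lines and bars are the mean and SD of these log2 values. Myt1l, Mki67, Cdk1, Dcx, Dpysl3 and Igf2bp3 are lower in every P21 library, and Gabra6, Mog, Snap25, Grin2a, Pvalb and Arc are higher.

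The cerebellum, whose granule cells are born largely after birth, held several of the strongest changes in the table. Of 8 granule cell progenitor genes 6 fell and 1 rose (median -1.69), of 8 mature granule cell genes 7 rose (median 1.87), and all 7 Purkinje cell genes rose (median 2.37). Atoh1, the factor that specifies granule cell precursors, ran from 34.3 over 53.9 to 79.3 at P3, and at P21 was 2.03 in replicate 3 and 0 in the other 4. Gabra6, the GABA-A receptor subunit of mature granule cells, ran from 0 over 2.85 to 7.16 at P3 and was 2480, 2880, 2589, 3174 and 2057 at P21. Neither gene overlapped between ages, and Gabra6 had the largest rise by the named-gene rule (log2 change 9.76, SE 0.5, limma adjusted p 8.26e-11). Cbln3, a synaptic organizer secreted by granule cells, rose from 63.8 ± 14.1 to 6953 ± 1259 (6.76). Barhl1 (-2.12), Mycn (-2.38) and Mfap4 (-2.58) fell past 2-fold, and the Hedgehog effectors Gli1 and Gli2 fell by 1.16 and 1.25. The rise was Zic2 (0.18), a zinc-finger factor of the granule cell lineage, a call kept without P21 replicate 5, P3 replicate 1 or P3 replicate 5 and lost without any 1 of the other 10 libraries and with a common library total. Of the Purkinje genes, Ppp1r17 rose from 31.9 ± 5.9 to 1568 ± 192 (5.59), Pcp2 from 105 ± 39.5 to 1728 ± 328 (4.08), and Itpr1, the calcium release channel, by 2.81.

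Myelin genes rose without exception. All 19 rose past 2-fold, with a median log2 change of 5.18, beside 8.91% of all genes. Opalin, a membrane protein of myelinating oligodendrocytes, ran from 0 over 0.922 to 2.92 at P3 and was 1633, 1158, 1259, 1722 and 1202 at P21. Mog, the myelin oligodendrocyte glycoprotein, ran from 14.2 over 35.2 to 109 at P3 and was 8514, 7013, 6541, 8669 and 5801 at P21. Mobp, a protein of compact myelin, ran from 409.5 over 574 to 1865 at P3 and was 90320, 86176, 78954, 89795 and 70420 at P21. The ages were far apart in all 3, with changes of 9.64, 7.48 and 7.05, and P3 replicate 1 was the highest P3 library for Mog and Mobp. Klk6, a protease of oligodendrocytes, was 1.7 in P3 replicate 1 and 0 in the other 7, and 566, 506, 447, 654 and 307 at P21. The enzyme Cnp rose by 3.78 and the adhesion protein Mag by 5.18, and Apod had the smallest rise (2.6).

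In earlier stages of the lineage, 4 of 9 precursor genes rose and 4 fell, near the shares of all genes tested (median -0.21, and 0.019 with P21 libraries of prefix 11 only). Pdgfra, the growth factor receptor of precursors, fell from 4244 ± 293 to 1996 ± 90.1 (-1.09), Cspg4 (NG2) fell by 0.24, and Sox10, expressed through the whole lineage, rose by 1.45. Of 8 genes of newly formed oligodendrocytes 5 rose and 3 fell. Myrf, the transcription factor that switches on myelin genes, rose from 381 ± 130.1 to 3398 ± 354 (3.2), Bcas1 and Enpp6 rose by 3.01 and 2.9, and Tcf7l2, which thalamic neurons also express, fell by 1.8. Gene for gene, the ratio of Mog to Pdgfra rose by 8.56 on the log2 scale.

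Cholesterol synthesis, which supplies membranes for growing neurons and for myelin, fell overall. Of 19 genes 13 fell and 5 rose, beside 39.4% and 37.9% of all genes tested (median -0.45). Hmgcs1, an early enzyme of the pathway, went from 25522 ± 1386 to 16296 ± 1447 (-0.65), and Sqle (-0.82), Lss (-0.82) and Fdps (-0.73) also fell. The later enzymes Msmo1 (0.55) and Sc5d (0.47) rose, as did Cyp46a1, the enzyme with which neurons remove cholesterol, from 1393 ± 254 to 6174 ± 229.5 (2.17).

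Glutamate receptor subunits exchanged. Of 7 NMDA receptor subunits 4 rose and 3 fell, and the ages did not overlap for any of the 7, beside 55.5% of all genes. The obligatory subunit Grin1 rose by 1.45. Grin2a, the subunit of mature forebrain synapses, ran from 912 over 1016 to 1492 at P3 and was 4984, 5447, 5381, 4400 and 5321 at P21, while Grin2b, its early partner, ran from 17886 over 19763 to 20827 and was 12569, 15352, 14090, 11153 and 16276. Grin2a rose (log2 change 2.25, SE 0.097, limma adjusted p 3.88e-13) and Grin2b fell by less (log2 change -0.51, SE 0.075, limma adjusted p 5.87e-06). Grin2c, made by cerebellar granule cells, rose by 4.13, Grin2d, of early brain stem and interneurons, fell by 1.47, and Grin3a and Grin3b moved in opposite directions (-1.59 and 2.18).

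Such exchanges were also measured as the ratio of a late to an early gene within each library, which does not depend on scaling. Of 23 ratios 22 changed by an exact two-sided permutation test, adjusted over the 23, and 19 did not overlap between ages. Of the 22, 18 rose. Those of Slc12a5 to Slc12a2 (-0.26), Dpf1 to Phf10 (-0.91), Ss18l1 to Ss18 (-0.96) and Ptbp2 to Ptbp1 (-0.24) fell. The smallest rise was that of Hk1 to Hk2 (0.50, adjusted p 0.042 by the exact test). Its ages overlapped, and in wild-type the same ratio changed by -0.16. Among single genes 77.3% were called and 55.5% did not overlap, and the share over arbitrary pairs of genes was not computed. The smallest p that 8 against 5 libraries allow is 0.00155 (adjusted 0.00188), and 19 ratios reached it. The ratio of Grin2a to Grin2b rose by 2.76 on the log2 scale (6.75-fold, adjusted p 0.00188 by the exact test), from -4.19 ± 0.2 at P3 to -1.43 ± 0.12 at P21 as log2 ratios. That of Grin2c to Grin2d rose by 5.61 (48.7-fold).

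**Figure D4:**
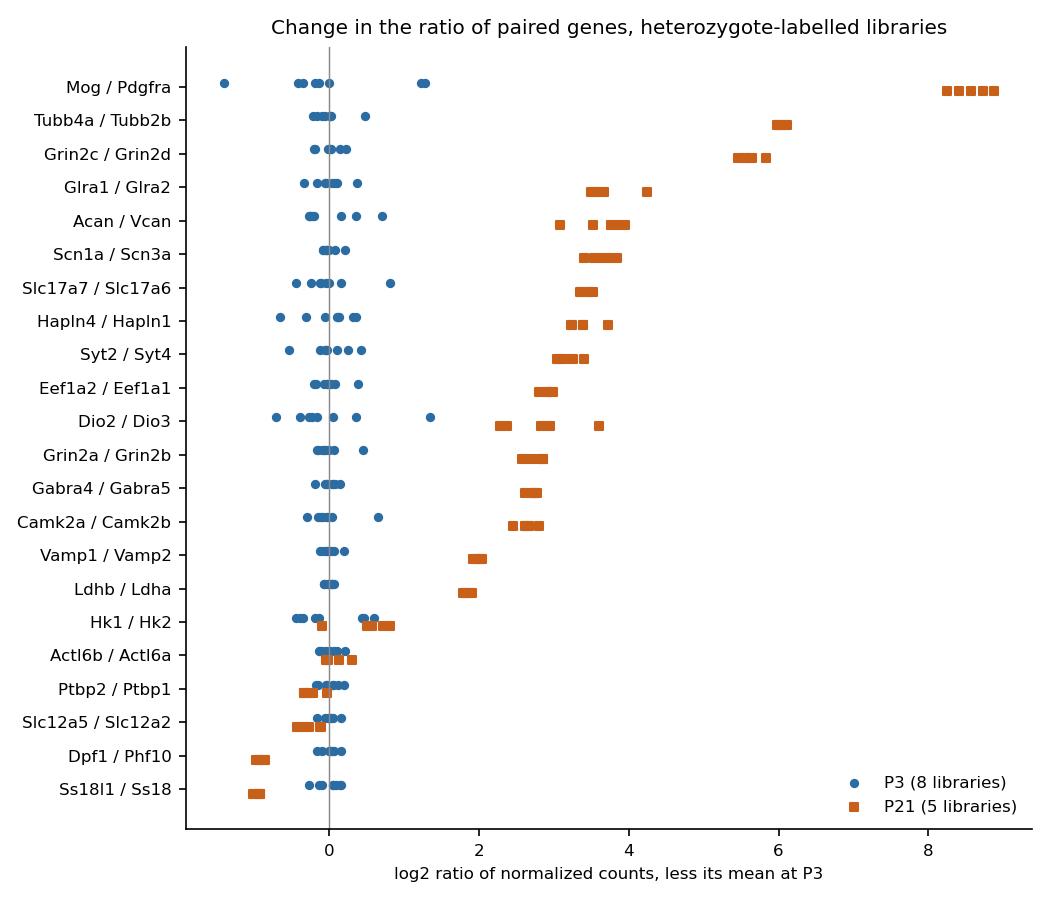
Change in the log2 ratio of a late to an early gene (horizontal axis, each library's ratio less the P3 mean) for 22 of the 23 gene pairs in heterozygote-labelled libraries, with points for the 8 P3 and 5 P21 libraries. The ratio of Mog to Pdgfra moves furthest right, and Actl6b to Actl6a stays at 0.

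Of 19 AMPA and kainate receptor genes 9 rose and 7 fell, beside 37.9% and 39.4% of all genes tested. Their median change was 0.091, and -0.06 with a common library total. Of the AMPA subunits, Gria3 rose from 2645 ± 125 to 6838 ± 613 (1.37), Gria1 and Gria4 rose by 0.64 and 0.48, and Gria2, which makes the channel impermeable to calcium, fell by 0.28. Among the auxiliary proteins, Cacng3 rose by 1.61 and Cacng4, an early form, fell by 1.79. The kainate subunits Grik1, Grik2 and Grik3 fell by 0.84, 0.67 and 0.83, and the other 2 did not pass.

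GABA and glycine genes rose in 16 of 25 cases and fell in 6 (median 0.43). Gabrd, the delta subunit of GABA-A receptors outside the synapse, ran from 103 over 133 to 223 at P3 and was 2974, 2801, 2487, 3245 and 2651 at P21 (4.36). No library overlapped between the ages. Gabra4 rose by 1.75, Gabra5 fell by 0.97, and Gabra2, a subunit of early life, did not pass (0.087). The ratio of Gabra4 to Gabra5 rose by 2.71. The adult glycine receptor subunit Glra1 rose from 111 ± 13.4 to 350.1 ± 72.7 and the early subunit Glra2 fell from 2725 ± 212 to 646 ± 49.9, a change in ratio of 3.71. The GABA-making enzymes Gad1 and Gad2 rose by 1.17 and 1.02.

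The chloride transporters that set the direction of GABA currents both rose. Slc12a5 (KCC2), which exports chloride, went from 10595 ± 545 to 20960 ± 1189 (0.98), and Slc12a2 (NKCC1), which imports it and which glia and choroid plexus also make, from 1885 ± 69.1 to 4472 ± 394 (1.24). Their ratio therefore fell slightly, by 0.26 on the log2 scale (adjusted p 0.00715 by the exact test), and the ages overlapped.

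Sodium channels exchanged in the same manner. Scn1a, the adult channel of fast-spiking neurons, rose by 1.48 and Scn3a, the early channel, fell by 2.15, so that their ratio rose by 3.63 (12.4-fold). Scn8a, of mature nodes, rose by 0.85. Of the beta subunits, Scn4b, which gives resurgent current, rose from 104 ± 32.8 to 7900 ± 778 (6.28), Scn2b by 3.59, and Scn3b fell by 1.24. Of the pacemaker channels, Hcn2 rose by 1.94, and Hcn3 and Hcn4 fell by 1.71 and 1.61. Of 30 potassium channels 23 rose, 14 past 2-fold, and 4 fell, none past 2-fold (median 1.0). Kcna1, of the axon beside the node, rose by 3.46, Kcnj9 by 2.94, and Kcnj10, of astrocytes and oligodendrocytes, by 2.66. The 4 that fell were Kcnn3 (-0.44), Kcnb2 (-0.31), Kcnn1 (-0.23) and Kcnd3 (-0.14), the last of which was lost without P21 replicate 1 (-0.11), P21 replicate 4 (-0.096) or P3 replicate 5 (-0.12). Kcng4, a modifier of these channels outside the list, was among the 15 largest rises (18.3 ± 6 to 2025 ± 132).

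Synaptic genes rose broadly. Of 31 presynaptic genes 23 rose and 6 fell (median 0.95), and of 18 postsynaptic genes 14 rose (median 1.01). At the postsynapse 1 gene fell, a call lost without any 1 of 7 libraries (P21 replicates 1 and 4, P3 replicates 1, 2, 3, 4 and 8), and 2 fell with a common library total. Snap25, a core protein of vesicle fusion, ran from 11689 over 12138 to 16013 at P3 and was 79512, 74645, 66015, 79603 and 83908 at P21. Camk2a, the calcium-dependent kinase of the postsynaptic density, ran from 5412 over 6613 to 12383 at P3 and was 54404, 59631, 56140, 61013 and 64931 at P21. Both were higher in every P21 library, and P3 replicate 1 was the highest P3 library for both. The changes were log2 change 2.6, SE 0.072, limma adjusted p 5.08e-16 for Snap25 and log2 change 3.09, SE 0.15, limma adjusted p 1.03e-10 for Camk2a. The vesicular glutamate transporter Slc17a7, of cortex and cerebellum, rose by 3.03 and Slc17a6, of thalamus and brain stem, fell by 0.41, a change in ratio of 3.43 (10.8-fold). Vamp1 (2.79), Syt2 (2.6) and Cplx1 (2.19), fusion proteins of fast synapses, rose past 2-fold. The 6 presynaptic falls were Syn3 (-1.78), a synapsin of early life, Doc2a (-0.6), Syt4 (-0.58), Slc17a6, Erc2 (-0.37) and Doc2b (-0.19). At the postsynapse, Camk2n1 (2.65), Nrgn (2.27) and Homer3 (1.87) followed Camk2a. Camk2a rose against Camk2b by 2.63 as a ratio.

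Genes of the extracellular net around neurons were split, with 6 of 11 up and 5 down. Hapln2, the link protein of nodes of Ranvier, and Hapln4, of inhibitory terminals, rose by 6.13 and 5.27, and aggrecan (Acan), the core of perineuronal nets, from 132 ± 31 to 333 ± 64.4 (1.33). Versican (Vcan), which early matrix and precursors make, fell by 2.31, neurocan (Ncan) by 1.61, and the hyaluronan synthases Has2 and Has3 by 3.41 and 2.45. The ratio of Acan to Vcan rose by 3.64. All 11 genes were non-overlapping between ages, beside 55.5% of all genes.

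Interneuron genes moved in both directions. Of 15 genes, 7 rose and 7 fell, near the shares of all genes tested (37.9% and 39.4%) (median -0.23, and -0.12 without P21 replicate 4). Pvalb, the calcium-binding protein of fast-spiking interneurons and Purkinje cells, ran from 34 over 50.9 to 79.7 at P3 and was 4294, 4174, 3442, 5061 and 4137 at P21 (log2 change 6.33, SE 0.15, limma adjusted p 1.73e-16). The groups were far apart, with no library between them. The peptides Vip (3.67) and Cck (2.33) and the calcium buffers Calb1 (2.21) and Calb2 (1.19) rose, and Sst rose by 0.32. The 7 falls included the lineage factors Nkx2-1 (-1.65), Lhx6 (-1.52), Dlx1 (-1.23), Dlx2 (-1.19), Dlx5 (-0.73) and Sp8 (-0.7), and the seventh was reelin (-0.76), which Cajal-Retzius cells secrete.

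Transcription factors of cortical neurons fell in 10 of 13 cases and rose in 2 (median -0.46). Foxp2, of deep layers and striatum, fell from 2273 ± 240.5 to 700.2 ± 84.3 (-1.7), Neurod6 by 1.6 and Bcl11b (Ctip2) by 1.29. Rorb, of layer 4, rose by 0.23, a call lost with a common library total (0.076), and Neurod1, which cerebellar granule cells express, by 1.03. Of 10 markers of striatal medium spiny neurons 9 rose (median 1.03). Ppp1r1b (DARPP-32), the dopamine-regulated phosphatase inhibitor, rose from 1444 ± 134 to 7423 ± 1124 (2.35), the opioid precursor Penk by 1.88, and the dopamine receptors Drd1 and Drd2 by 0.8 and 1.02. The tenth marker did not pass.

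Immediate-early genes, which neurons switch on within minutes of activity, rose in 18 of 20 cases, 12 past 2-fold (median 1.55). Arc, which acts at active synapses, ran from 182 over 261 to 404 at P3 and was 5063, 5322, 4978, 4011 and 4448 at P21. Egr1 ran from 475 over 692 to 1104 at P3 and was 8327, 9408, 8556, 9153 and 9227 at P21. All P21 libraries were above all P3 libraries for both (log2 change 4.18, SE 0.14, limma adjusted p 1.05e-13 for Arc, log2 change 3.69, SE 0.16, limma adjusted p 3.47e-11 for Egr1). Egr4 (3.68), Fosb (3.31), Fos (2.79) and Junb (2.75) rose too, and Nr4a3 and Nr4a2 fell by 0.5 and 0.38. Of 14 clock genes 12 rose, 9 past 2-fold (median 1.69). The output factor Dbp rose from 311 ± 45.6 to 3037 ± 538 (3.28), Ciart by 2.7, Hlf by 2.63, Nr1d1 (REV-ERB alpha) by 2.59 and Per3 by 2.21. Both immediate-early and clock genes vary within a day, and the labels give no hour of collection, so age and hour cannot be told apart for them.

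Thyroid hormone, which times brain maturation, had 9 genes on its list, of which 4 rose, all past 2-fold, and 2 fell (median 0.13, and -0.02 with a common library total). The risers were Klf9 (2.79) and Hr (2.4), genes that the hormone induces, Dio2 (2.44), the deiodinase that makes active hormone, and the receptor Thrb (1.55). The receptor Thra fell by 0.56. Dio3, which inactivates the hormone, did not pass (-0.36), fell by 0.48 without P3 replicate 1 and stood at -0.13 without P21 replicate 3, and the ratio of Dio2 to Dio3 rose by 2.81 (7.00-fold).

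Among glia, 15 of 16 genes of mature astrocyte functions rose and 1 fell (median 1.22). S100b, a calcium-binding protein of astrocytes and oligodendrocytes, ran from 352 over 397 to 637 at P3 and was 6606, 5829, 5548, 8190 and 5928 at P21. Slc1a2 (GLT-1), the main glutamate transporter, ran from 10196 over 11550 to 16852 at P3 and was 58911, 63199, 66368, 67858 and 71932 at P21. The ages were apart for both (3.89 and 2.44). The gap junction gene Gjb6 rose by 2.83, Aldoc, an enzyme of astrocytes and some Purkinje cells, by 2.53, glutamine synthetase (Glul) by 1.95 and Gfap by 1.32, while Aldh1l1 fell by 0.21. Etnppl, an astrocyte enzyme of phospholipid breakdown, was among the 15 largest rises of the table, from 8.1 ± 8.14 to 1028 ± 377, with P21 replicates 4 and 5 at 601 and 633 and the other 3 between 1262 and 1360. Of 9 genes of immature astrocytes 7 fell and 1 rose. Thbs1, which promotes synapse formation, fell by 1.67 and Sparc, a matrix protein made also by microglia and vessels, rose by 1.32.

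Microglia identity genes rose in 11 of 12 cases and 1 fell (median 1.2). With the P21 libraries of prefix 24 only the median was 1.04, and with those of prefix 11 only it was 1.45. Tmem119 rose from 128 ± 20.3 to 670.1 ± 144 (2.36), Siglech by 1.91 and the purinergic receptor P2ry12 by 1.52, and the transcription factor Sall1 fell by 0.13, a call lost without any 1 of 6 libraries (P21 replicates 1, 2 and 4, P3 replicates 3, 4 and 5; -0.13 to -0.11). Of 11 genes of complement, lysosome and the microglia of proliferative regions 8 rose and 2 fell. The complement genes C1qa, C1qb and C1qc rose by 1.52, 1.42 and 1.24, C4b by 1.73 and the protease Ctss by 2.11. Igf1 and Lpl, which early microglia make, fell by 1.16 and 1.47, and Spp1, which is also made by neurons, rose by 1.94.

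In blood vessels, 7 of 14 endothelial genes rose and 3 fell, beside 37.9% and 39.4% of all genes tested. The transporters Slco1a4 (3.06), Slc2a1 (GLUT1, 1.89) and Abcb1a (1.42) of the blood-brain barrier and the peptide Apln (1.76) rose, and the growth factor receptor Kdr (-1.44) and the tight junction gene Cldn5 (-0.54) fell, as did Esm1 (-0.76), of growing tips, whose call was lost without P21 replicate 2 (-0.61). Of 7 genes of pericytes and smooth muscle 4 rose, with Myh11 highest (0.97). Meninges and fibroblast genes fell in 8 of 12 cases and rose in 1. Col3a1 (-2.08) and Col1a1 (-1.35) passed 2-fold (1 of them without P21 replicate 2) and the rise was Col6a1 (0.5). Of 8 genes of ciliated ependyma 3 rose and 4 fell, and of 6 choroid plexus genes 4 rose and 1 fell. Ttr, the transthyretin of choroid plexus, ranged from 4327 to 19319 at P3 and was 21651, 24488, 20507, 24007 and 9893 at P21. The ages overlapped and the gene did not pass the test, though without P21 replicate 5, the lowest P21 library, it did (log2 change 1.11), as it did without P3 replicate 3 (1.00) or P3 replicate 7 (0.98). Kl, the klotho gene of choroid plexus and neurons, rose by 2.24.

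Energy genes rose. Of 18 glycolysis genes 13 rose and 2 fell (median 0.91), all 5 creatine genes rose (median 1.49), and of 8 ketone and fatty acid genes 5 fell and 2 rose (1 without P21 replicate 1, 2, 3 or 4 or P3 replicate 4, 5, 6 or 8). Neuron-specific enolase (Eno2) rose from 7029 ± 858 to 32116 ± 2216 (2.2), Pkm by 1.38 and Pfkm by 1.47, while Pfkp, another phosphofructokinase, fell by 1.2. Ldhb rose by 1.86 and Ldha did not pass (0.014, and -0.14 with a common library total, where it was called), so their ratio rose by 1.85. Gamt and Ckmt1 of the creatine system rose by 2.29 and 1.88. Among the ketone genes, Slc16a7, a neuronal transporter of lactate and ketones, fell by 0.91.

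All 45 nuclear genes of the respiratory chain rose, though 1 passed 2-fold (median 0.63). The range was narrow, from 0.2 for Sdhd to 1.31 for Cox8a, the one that passed. Ndufs7, of complex I, ran from 1033 over 1121 to 1248 at P3 and was 2676, 2182, 1887, 2587 and 2027 at P21. Every P21 library was higher. With a common library total 43 of the 45 rose. The 15 mitochondrial genome genes also rose, with a median of 0.78 and 2 past 2-fold, the ribosomal RNAs mt-Rnr1 (1.63) and mt-Rnr2 (1.98), which were named after their values were seen.

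Ribosomal protein genes moved the other way. Of 41 genes 38 fell, 1 past 2-fold, and none rose (median -0.55). Rplp0, of the ribosomal stalk, ran from 16985 over 17859 to 19547 at P3 and was 7826, 6850, 5841, 8055 and 6602 at P21 (log2 change -1.37, SE 0.065, limma adjusted p 5.1e-13), and Rpsa followed at -0.99. The ages did not overlap for 31 of the 41, beside 55.5% of all genes. Without P21 replicate 3, or without P21 replicate 5, 34 fell. Ribosomal genes have many processed copies in the genome, so part of their reads may be counted elsewhere. Of the translation factors, Eef1a1 fell from 120988 ± 5022 to 59279 ± 6821 and Eef1a2, which replaces it in mature neurons, rose from 9254 ± 1008 to 34021 ± 3302, a change in ratio of 2.92 (7.55-fold).

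Most DNA methylation, BAF and splicing genes fell. Of 11 DNA methylation genes 8 fell and 2 rose (1 without any 1 of 6 libraries, P21 replicates 1, 2 and 4 and P3 replicates 3, 4 and 7). Uhrf1, which couples methylation to replication, fell most (-3.64), followed by Dnmt3b (-1.84), Tet1 (-1.31) and Dnmt1 (-1.14). Mbd2, a methyl-CpG reader, rose by 0.93. Of 18 BAF chromatin remodelling genes 13 fell and 3 rose, none past 2-fold (1 or 2 without P21 replicate 1, P21 replicate 5 or P3 replicate 1). Of 10 linker histones and histone deacetylases 5 rose and 5 fell, beside 37.9% and 39.4% of all genes tested (median 0.061, and -0.09 with a common library total). The neuronal subunits did not rise against the progenitor ones here: Dpf1 fell against Phf10 by 0.91 as a ratio, Ss18l1 against Ss18 by 0.96, and Actl6b against Actl6a stood at 0.07 (adjusted p 0.36 by the exact test). Of 19 neuronal splicing factors 15 fell and 4 rose. Mbnl2 (2.57), Mbnl1 (1.16), Rbfox3 (NeuN, 1.07) and Rbfox1 (0.38) rose, and Ptbp2, the repressor of young neurons, fell by 1.19 and Ptbp1 by 0.95.

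In the MYT family and its partners, 8 of 9 genes fell and 1 rose (median -0.79). Beside Myt1l, Myt1 fell from 1197 ± 90.9 to 733 ± 80.6 (-0.71), and St18, the third family member, rose from 520.2 ± 109 to 867 ± 86.4 (0.76). Rest, the repressor of neuronal genes outside neurons, fell by 0.78, its corepressor Rcor2 by 1.52, and Insm1, of newborn neurons, by 2.18. The ages did not overlap for any of the 9, beside 55.5% of all genes.

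Transmitter systems outside glutamate and GABA rose in 28 of 43 cases and fell in 12 (median 0.53). The muscarinic receptors Chrm4 (1.99) and Chrm1 (1.5), the adrenergic receptor Adrb1 (1.77), and the enzymes Chat (1.88), which makes acetylcholine, Th (1.62), of dopamine synthesis, and Maob (1.69) passed 2-fold. The nicotinic subunit Chrna3 fell most (-1.84), and Chrna5 (-1.31), the serotonin transporter Slc6a4 (-0.95) and the opioid receptor Oprm1 (-0.87) also fell. Of 18 neurotrophin and growth factor genes 10 rose and 6 fell, beside 37.9% and 39.4% of all genes tested. Fgf1 (2.97) and Bdnf (1.55) passed 2-fold upward, and the receptor Ngfr (p75) passed it downward (-1.85).

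Of the remaining largest rises by the named-gene rule, Sycp1, a protein of meiotic chromosomes, was 0.843 in P3 replicate 3 and 0 in the other 7, and 190.3, 143, 91.1, 152 and 164 at P21. Cyp2j12, a P450 gene, was above 0 in 2 P3 libraries, 2.71 and 0.938, and 125, 136, 129, 144 and 121 at P21. Dao, the oxidase of D-amino acids in cerebellar astrocytes, ran from 0 to 4.96 at P3 and was 288, 239, 219, 313 and 175 at P21. Each was near 0 at P3 and clear of it in all 5 P21 libraries, as was Crtam, an adhesion protein, which went from 3.48 ± 1.11 to 386 ± 77.6. Gdf1 shares a transcript with Cers1, so its counts are uncertain, and it was 66.9 in P3 replicate 8 and 0 in the other 7, and 166 to 508 at P21.

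By gene class, the median was 0.0075 for 15287 protein-coding genes, -0.072 for 578 lincRNAs and 0.15 for 481 antisense genes, whose reads cannot be told from those of the opposite strand in this unstranded kit. For 180 processed pseudogenes it was -0.57. On the X chromosome, 582 genes had a median of -0.17, with 6.87% past 2-fold higher and 10.7% past 2-fold lower.

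The heterozygote-labelled change was compared with the wild-type change in 1 fit of 26 libraries. No gene of 18554 differed at an adjusted p under 0.05 (0% called, limma interaction contrast), and 1577 (8.5%) differed at an unadjusted p under 0.05. The smallest adjusted p was 0.117. In this fit 14239 genes (76.7%) were called in the heterozygote-labelled libraries and 14584 (78.6%) in wild-type, and 13152 were called in both, which is 92.4% of the former and 90.2% of the latter. Of these, 2 went in opposite directions, Tex14 and Gm34788, named after their values were seen. The median absolute difference between both changes was 0.11, with Pearson's r of 0.96 across 18554 genes, which are not independent replicates. A p that misses the threshold does not show that the changes were equal.

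**Figure D5:**
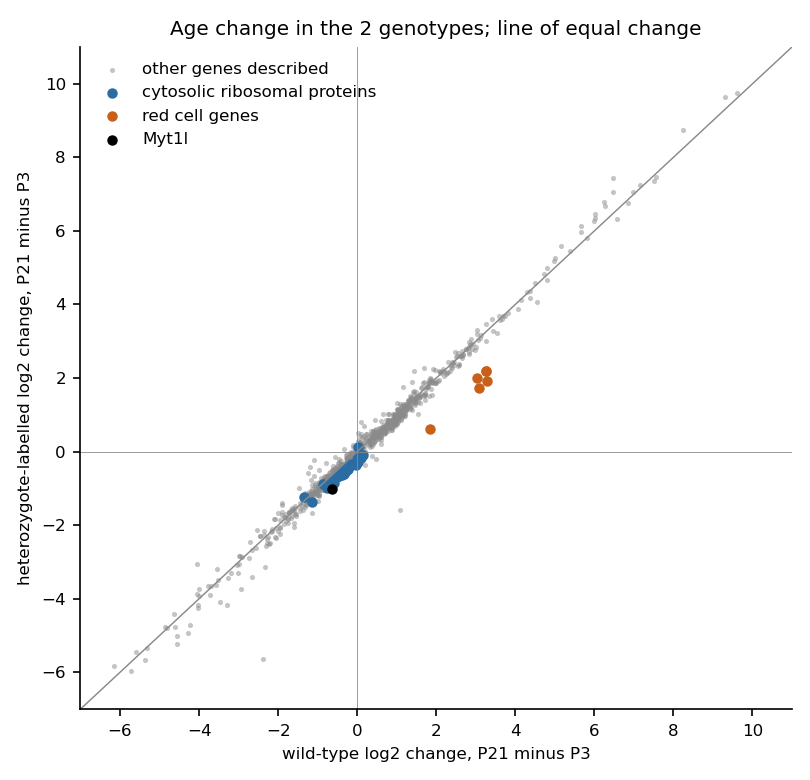
Log2 change from P3 to P21 in heterozygote-labelled libraries (vertical axis) against wild-type libraries (horizontal axis) for the tested list members and named genes. The line of equal change is drawn, and ribosomal protein genes, red cell genes and Myt1l are marked. Points follow the line, and ribosomal genes lie slightly under it. The r of 0.96 in the text is over all 18554 genes of the fit of both genotypes, not over the points shown.

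The 10 genes of smallest p for this difference began with Tex14, a protein of germ cell bridges. Tex14 went from 36.1 ± 10.6 to 13.8 ± 10.6 in heterozygote-labelled libraries and from 19.6 ± 11.4 to 38.3 ± 7.3 in wild-type, a difference of -2.69 (limma adjusted p 0.117). Myt1l came next, with a fall of 1.02 against 0.64, a difference of -0.37 (SE 0.075, unadjusted limma p 2.71e-05, adjusted 0.168). Its direction rests on the P3 heterozygote-labelled libraries, whose Myt1l was higher than in every wild-type P3 library. The other 8 had adjusted limma p-values up to 0.472. Cyp26b1, which degrades retinoic acid, differed by -0.52, the mitochondrial protease Oma1 by -0.51, the mitotic genes Ube2c and Cenpe by -0.81 and -0.82, Dok4 by -0.27, the actin-binding Tmsb10 by -0.3, Cfap54 by 0.86 and Trim7 by 0.5. None of the 10 passed the test.

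Among the lists, ribosomal protein genes fell by a median of -0.55 in heterozygote-labelled and -0.35 in wild-type libraries. The difference was negative for 39 of 41 genes, with a median of -0.22, and 32 were under an unadjusted p of 0.05. Without P21 heterozygote-labelled replicate 3 the median was -0.16 and 17 were under 0.05. Respiratory chain genes rose by a median of 0.63 and 0.78. The difference was negative for 44 of 45, with a median of -0.17 and 18 under an unadjusted p of 0.05, which became -0.11 and 2 without that replicate. The P21 descriptions begin with a number that is unequally spread over the genotypes. It is 24 in 3 and 11 in 2 heterozygote-labelled libraries, and 24 in 1, 16 in 2 and 11 in 2 wild-type libraries. Within prefix 11, with 2 P21 libraries of each genotype, the median difference of the ribosomal genes was -0.069 and that of the respiratory chain genes -0.1, with 0 genes of either list under an unadjusted limma p of 0.05. Within prefix 24, where the wild-type arm is 1 P21 library, the medians were -0.27 and -0.17, with 27 and 5 genes under it. The part of the prefix in these differences was not tested. These genes are expressed together within a library, so their shared sign is not 41 or 45 separate observations, and none was called.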

How the data were processed

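RNA of whole brains was measured by RNA sequencing with version 2 of the TruSeq RNA kit, which does not keep the strand. The submitters' processing notes list Salmon 1.1.0, R 3.6.2, DESeq2 1.26.0 and build GRCm38, and a release of the annotation or a filter on genes is not given in the sources used here. Each deposited signal value is an estimated count of a gene after the authors' normalization across all 36 libraries. Of the values 0.748% were whole, all of them 0, so reads were not recovered, the depth is unknown, and precision rests on the spread between libraries. After this normalization the totals ran from 31707059 to 32773386 at P3 and from 34492184 to 36828083 at P21 in the heterozygote-labelled libraries. Of 19164 genes, 19150 matched the GENCODE M21 annotation of GRCm38, 14 did not, and 22 symbols were shared.

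Samples were grouped by the age and genotype labels. Values were taken to log2(value + 1), genes with at least 10 in at least 5 libraries were kept, and the ages were compared with limma 3.58.1 in R 4.3.3 (trend and robust options, two-sided, Benjamini-Hochberg). The test past 2-fold was limma's treat. A fit of 4 groups gave the difference between genotypes. Myt1l and 23 ratios were tested by exact permutation over 1287 assignments. The plan for count data was not used because the file holds normalized values. The scripts were tested on simulated data. Promoters came from RefSeq (GRCm38.p6), and motif shares were given only where at least 80% of a list was matched.

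The gene lists rest on textbook markers and pathways, and both they and the libraries compared were chosen with earlier results of these data known. The named genes are Myt1l, the 15 largest rises and 15 largest falls past 2-fold (mean of 20 or more, clone and predicted names left out), members of the pairs and lists, and the 10 genes of smallest p for the genotype difference. Some members are not reported here. Lists were described by counts and medians without a set test.

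The alternatives were quantile normalization, a common library total, added values of 0.5 and 8, no filter, a filter at 50, limma without its trend and robust options, library quality weights, all 36 libraries in 1 fit, a block for the replicate number, P21 libraries of 1 description prefix only, and each library left out. P21 descriptions begin with 24 (heterozygote-labelled replicates 1 to 3, wild-type replicate 1), 16 (wild-type replicates 2 and 3) or 11 (replicates 4 and 5 of both), and the labels do not say what these mean.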

Additional observations from a re-analysis of the deposited data

Results flagged for a closer look

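In 780 combinations of a gene, list or ratio with an age, the highest or lowest library was set against the rest. Its gap to the nearest other library, divided by the range of the group, passed Dixon's 95% critical value for 84. For a single item with normal values, chance gives about 1 in 20. The 780 are not independent, since lists, their members and ratios share genes and all share the same libraries. The count of 84 can therefore not be set against that rate. P3 replicate 1 accounted for 58 of these and P21 replicate 5 for 10. Values in parentheses are that ratio of gap to range.

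P3 replicate 1 was the highest P3 library in mean log2 value of potassium channels (0.602), presynaptic (0.584), postsynaptic (0.673), oligodendrocyte lineage (0.595), astrocytes (0.611), immediate-early genes (0.539), circadian clock (0.544) and energy metabolism (0.585), and the lowest in imprinted and fetal growth (0.591). It also had the highest ratio of Grin2a to Grin2b (0.618), Slc17a7 to Slc17a6 (0.527), Tubb4a to Tubb2b (0.647), Camk2a to Camk2b (0.652) and Eef1a2 to Eef1a1 (0.536). It was the highest for Klk6 (1), Mal (0.601), Mobp (0.635), Bcas1 (0.536), Camk2a (0.692), Cck (0.594), Cnp (0.68), Cplx1 (0.591), Cspg4 (0.533), Dio2 (0.557), Enpp6 (0.534), Fos (0.528), Gria1 (0.545), Gria3 (0.6), Grin1 (0.641), Hcn2 (0.659), Kcnj10 (0.678), Kcnj9 (0.548), Klf9 (0.667), Ldha (0.557), Mbnl2 (0.663), Mfap4 (0.649), Myrf (0.585), Neurod1 (0.606), Nr1d1 (0.616), Nrgn (0.706), Pcp2 (0.665), Rbfox3 (0.637), Rcor2 (0.721), Scn4b (0.619), Sema3d (0.578), Slc17a7 (0.687), Slc1a2 (0.57), Snap25 (0.657), Sparc (0.533), Tubb4a (0.618) and Vip (0.584). It was the lowest for Draxin (0.57), St8sia2 (0.541), Dnmt1 (0.59), Nes (0.609), Sema3f (0.599), Sox11 (0.527) and Stmn4 (0.562). For the lists, each of these lay on the side of the P21 libraries, and the part of this library in the age changes is given by the values without it in the report.

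Other P3 libraries stood out for single genes. P3 replicate 3 was highest for Sycp1 (1). P3 replicate 3 was lowest for Ptges3-ps (0.652) and Grin2d (0.547). P3 replicate 7 was highest for Chrna5 (0.63). P3 replicate 7 was lowest for Kcnn1 (0.556). P3 replicate 8 was highest for Gdf1 (1) and Notch1 (0.536). A ratio of 1 means that all the other libraries were at the same value, here 0.

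At P21, replicates 3 and 5 stood out most often. P21 replicate 1 was lowest for Slco1a4 (0.729). P21 replicate 2 was highest for Cenpe (0.809). P21 replicate 3 was highest for Eif4a-ps4 (1), Atoh1 (1) and Igf2bp1 (0.797). P21 replicate 3 was lowest for Ccne1 (0.768), Dio3 (0.797) and Scn2b (0.808). P21 replicate 4 was highest for Vim (0.712). P21 replicate 5 was highest for Chrna3 (0.828), Dpf1 (0.739), Glra1 (0.823) and Pomc (0.859). P21 replicate 5 was lowest for Actl6b (0.743), Kl (0.808), Pax6 (0.724), Prom1 (0.776) and Ttr (0.804). The ratio of Glra1 to Glra2 (0.767) was highest in P21 replicate 5.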

How the results depend on the processing

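The numbers of genes that rose, fell or passed 2-fold stayed within 1.5 times the reported ones in every alternative run. Leaving out 1 library gave 6593 to 6837 genes higher, 6862 to 7199 lower, 1503 to 1660 past 2-fold higher and 1277 to 1416 past 2-fold lower, and a change of -1.05 to -0.998 for Myt1l. The P21 libraries of prefix 24 alone gave 1439 and 1281 past 2-fold, and those of prefix 11 alone 1364 and 1264. The DESeq2 alternative was not run because the file holds no counts. The number of genes whose change differed between genotypes was 1 without the trend, 1 with prefix 11 only, 5 with prefix 24 only and 0 to 2 with 1 library left out (1, Tex14, without P21 heterozygote-labelled replicate 5 and 2, Tex14 and Gm42429, without P3 wild-type replicate 6), and the cause was not tested. The gene was Gm49327 without the trend and Ttc6 with prefix 11. With prefix 24 the wild-type P21 arm is 1 library, assumed to vary like the other groups, and the 5 rest on it (Gm5977, Amy2a4, Pdcd5-ps, Gm38226 and Gm2436, copies or predicted genes). Of 23 ratios, 21 to 22 were called with 1 library left out and 0 with prefix 11 only, where 19 ratios reached the smallest exact p that 8 against 2 libraries allow (0.0444, adjusted 0.0538). In that setting the ratio of Actl6b to Actl6a stood at -0.034.

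A common library total reversed 2 list medians, AMPA and kainate receptors (-0.060) and thyroid hormone (-0.020). It also reversed Gabra2 (-0.064) and Ldha (-0.14), and Ldha was -0.063 with quantile normalization, -0.064 with prefix 24 only and between -0.023 and 0.084 with 1 library left out. Ss18 lay between -0.036 and 0.0019 with 1 library left out. Over all alternatives of the named genes, 8150 results kept direction and side of the threshold, 43 lost a call, 16 gained one and 10 reversed. Of the list medians 880 moved by less than the spread between libraries, 68 by more and 2 reversed. Of 178 counts of list members that rose or fell, 20 moved by over 1.5 times with a common library total, 8 with quantile normalization and 10 with 1 library left out.

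With the replicate number as a block, 6332 genes were higher and 6584 lower, 1405 and 1148 of them past 2-fold, and 0 differed between genotypes. Same-numbered P3 and P21 libraries are different mice, their deviations correlated at -0.036 to 0.047, and 0 of 5 P21 libraries correlated best with their own number, so the numbers were not taken as pairs. Depth is unknown, so no limit from counting can be given for genes listed at 0.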
